A study of Mus musculus with 6 samples.

Results

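Complement components and regulators were examined in mouse liver, in 6 libraries of polyadenylated RNA: 3 from control livers and 3 from livers exposed to the plasticizer DEHP, which is di(2-ethylhexyl) phthalate. The 31 genes were chosen by symbol and sorted by pathway, with no measured value in the rule. Earlier results of these data were known when the genes were chosen. A row under the symbol was present for 26 of the 31, among 41096 named rows in all, and 25 of the 26 passed the filter on low counts. C1ra, C1s1, C4b, Hc and Cd55 had no row under their symbols, and C5ar1 did not pass the filter. The labels give the tissue and the exposure alone, with no dose, duration, strain, age or sex for either group. The columns of the exposed libraries carry the word High. Nothing in the labels states that each library is a different animal, and the p-values then reflect only how these samples vary, which may be technical.

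Complement is a cascade of plasma proteins, most of them made by hepatocytes. It starts on antibody through C1q (the classical pathway), on sugars through mannose-binding lectins and collectins (the lectin pathway), or on C3 itself (the alternative pathway). The routes meet at C3, and C5 to C9 then assemble the membrane attack complex, while plasma and membrane regulators hold the cascade in check. In liver, C1q and properdin are products mainly of macrophages, including Kupffer cells, and most of the other plasma components mainly of hepatocytes.

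Total counts ran from 10410098 to 14229803 per library. Libraries within the control group did not lie together. A list of 27 interferon-stimulated genes summed to 4682 and 3780 CPM (counts scaled to the TMM-adjusted library total) in control replicates 1 and 2, against 464 in control replicate 3 and 418 to 492 in the exposed libraries. Control replicate 3 was therefore near the exposed libraries in this sum. In 4 of the 25 tested genes of the list, all exposed libraries lay below all controls (8.57% of all genes). Results that rest on the split of the controls are given below with and without control replicate 3. Hepatocyte genes took 10.3% to 16.3% of each library, with 9 of 10 listed genes present and none at 0.

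None of the 25 tested genes passed an adjusted p of 0.05 by edgeR's quasi-likelihood test for DEHP, where 9 of 12468 genes did (0.0722%). The smallest adjusted p among them was 0.208, for Vtn. At an unadjusted p of 0.05, 10 of the 25 were lower with DEHP (40%, against 6.97% of all genes tested) and 0 were higher (6.11% of all genes). The 10 were C1qa, C1qb, C1qc, C2, Colec10, Masp1, Cfp, C8a, C4bp and Vtn. In 6 of the 25, all exposed libraries lay below all controls (24%, against 8.57% of all genes): Mbl1, Colec10, Masp1, C8a, Cfi and Vtn. In 0 of the 25 they lay above all controls (9.17% of all genes). The median log2 fold change of the 25 was -0.37, with 19 negative and 6 positive, against a median of -0.03 and 52.9% negative over all genes. When counts of this design were simulated, the test recovered 25% of 100 genes given a log2 change of 1, and 80% of those given a log2 change of 2.

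**Figure D1:**
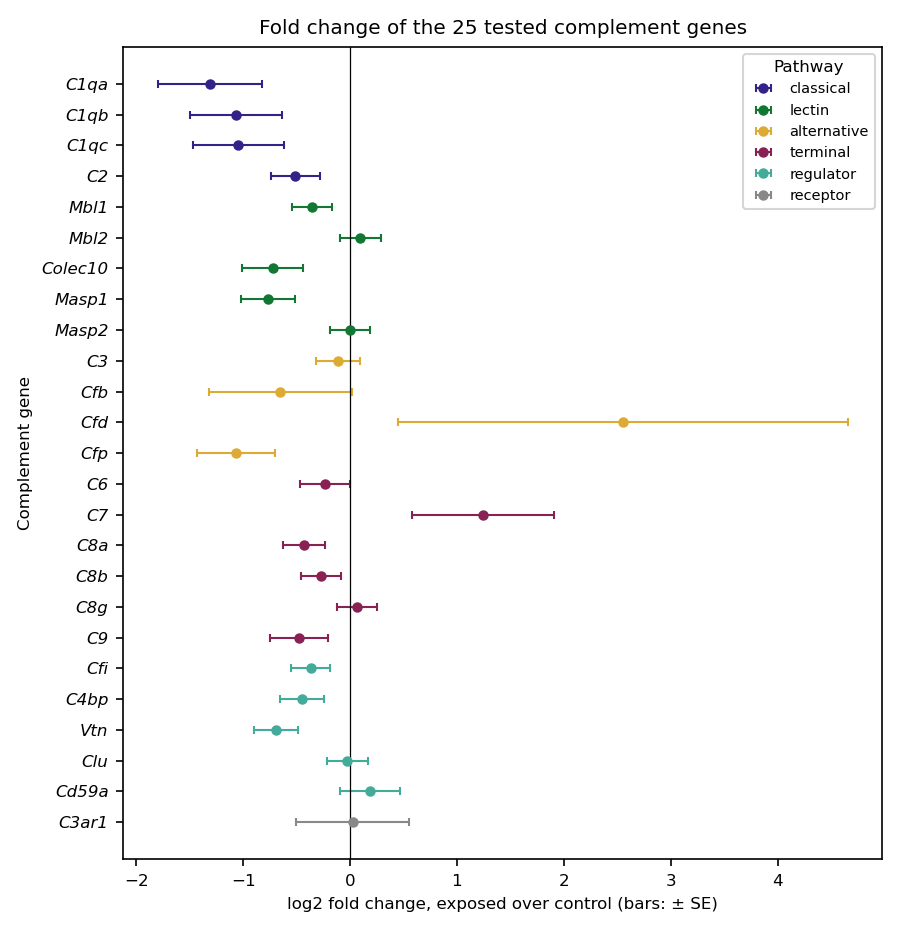
Log2 fold change, exposed over control, of the 25 tested complement genes (points) with standard errors (bars), colored by pathway; the vertical line marks no difference. The C1q chains and Cfp lie near or beyond -1, C3, Clu, Mbl2, Masp2 and C8g lie near 0, and Cfd has the widest bar.

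Set side by side per kilobase of gene length, the levels spanned from Vtn to C5ar1 (the plot of levels per length). Vtn, which encodes vitronectin, averaged 2383 CPM per kilobase over the 6 libraries, C3 averaged 1316 and Clu, which encodes clusterin, 663. Mbl2 followed with 393, C8g with 341, Cfi with 231 and Mbl1 with 193. The C1q chains stood lower, with 73.4 for C1qa, 47.8 for C1qb and 23.8 CPM per kilobase for C1qc. At the low end were C7 with 0.883, C3ar1 with 0.564, Cfb with 0.473 and C5ar1 with 0.268 CPM per kilobase. In that order, the ranges over the 6 libraries separated a gene from the next only after C3, Clu, C8g and Cfp, so the order of most neighbors is within the spread.

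**Figure D2:**
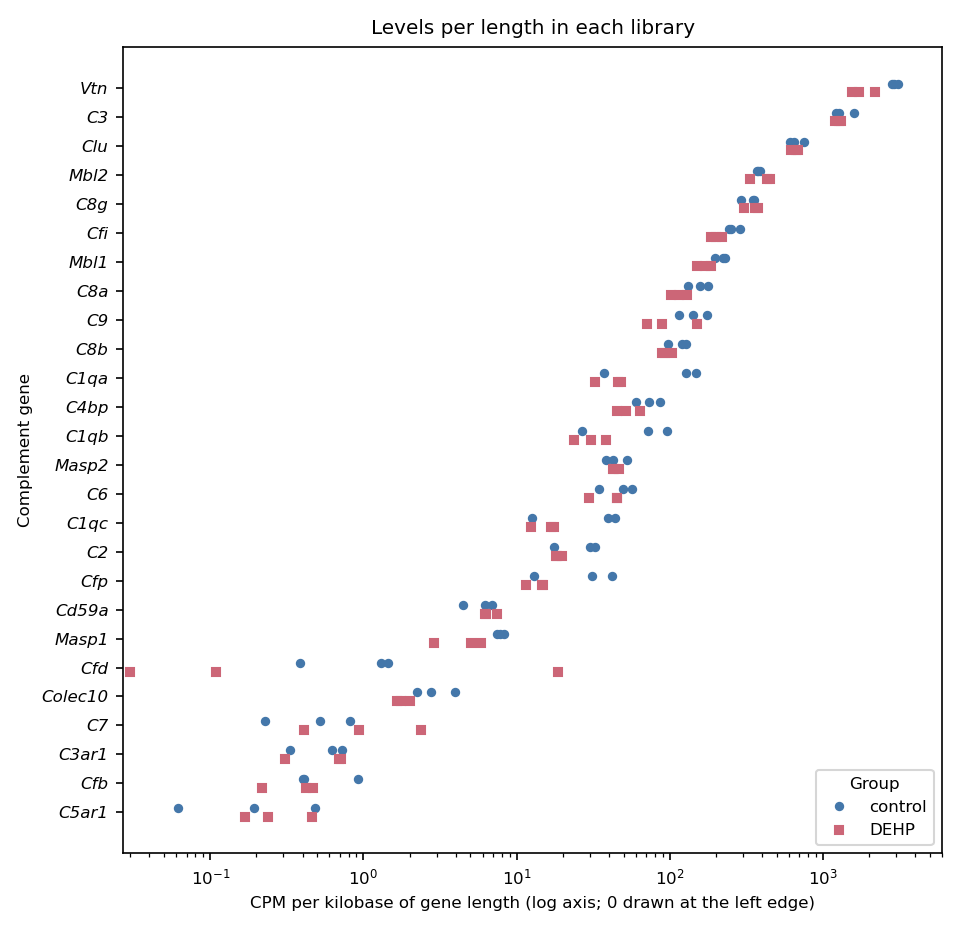
CPM per kilobase of gene length (log axis) for the 26 complement genes with a row, 1 point per library, with circles for controls and squares for DEHP; a value of 0 is drawn at the left edge. Vtn, C3 and Clu are at the top, and the single exposed library far to the right for Cfd is DEHP replicate 3.

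The summed CPM of the 26 genes made up 1.90%, 2.14% and 1.81% of the library in control replicates 1 to 3, and 1.63%, 1.65% and 1.49% in DEHP replicates 1 to 3. The groups did not overlap in this sum. Its largest terms were C3, Vtn and Clu, and of these the groups were apart only for Vtn.

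In the classical pathway, all 4 tested genes were lower at an unadjusted p of 0.05 (6.97% of all genes). Their median log2 fold change was -1.05, and in none of them were the groups apart. C1qa, C1qb and C1qc encode the chains of C1q, the antibody-binding subunit of C1. They are neighbors on the minus strand of chromosome 4, within chr4:144448989-144469777 in the C57BL/6NJ coordinates of the deposited table. C1qa had 154, 134 and 38.8 CPM in control replicates 1 to 3, and 33.8, 49.9 and 47.8 CPM in DEHP replicates 1 to 3. Control replicates 1 and 2 were high, and control replicate 3 lay among the exposed libraries. The group means were 109 ± 61.3 and 43.9 ± 8.75 CPM (SD, n = 3), a log2 fold change of -1.31 ± 0.49 (SE, edgeR adjusted p = 0.350). C1qb had 78.0, 104 and 29.0 CPM in controls and 25.9, 41.9 and 33.1 CPM in exposed livers, a log2 fold change of -1.07 ± 0.43 (edgeR adjusted p = 0.367). C1qc had 76.3, 84.9 and 24.2 CPM in controls and 24.0, 32.2 and 33.7 CPM with DEHP, a log2 fold change of -1.04 ± 0.43 (edgeR adjusted p = 0.369). The split of the controls was the same for all chains. Per length, C1qa stood 1.25 to 2.06 times above C1qb in every library and 2.62 to 3.74 times above C1qc.

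C2, the protease subunit of the classical and lectin C3 convertase, followed the same split at a smaller size. Its control libraries had 116, 125 and 67.6 CPM, and the exposed libraries 77.0, 70.8 and 69.6 CPM. The third control was the lowest of the 6 libraries. The log2 fold change was -0.51 ± 0.23 (SE, edgeR adjusted p = 0.369). C2 lies at chr17:36311731-36352883, and its span overlaps that of Gm20547 on the same strand, listed at 0 counts. The sources used here do not say how reads in both were assigned.

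Cfp encodes properdin, which stabilizes the alternative pathway convertase, and lies at chrX:16247805-16253906. It had 73.0, 53.7 and 22.6 CPM in the controls and 25.4, 26.0 and 20.0 CPM in the exposed livers. Here too the first and second controls were high and the third was within the exposed range. The log2 fold change was -1.06 ± 0.36 (SE, edgeR adjusted p = 0.294).

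Promoter sequences from RefSeq on GRCm38.p6 matched 23 of the 31 members, in 25 windows of 300 bases that run from 250 before to 50 after a start. Those of C1qb, C1qc and Cfp are shown because these genes share the split of the controls. Each sequence ends before the first transcript start annotated in GENCODE M21 and runs 5′ to 3′ on the gene's strand, which is the minus strand for all of them. Capitals mark matches to GGGA, any 4 bases and CC (NF-kappaB) in C1qb, where a match on each strand overlaps. In C1qc they mark a match to GAGGAAGT (PU.1, a myeloid factor) on the opposite strand, which reads ACTTCCTC as printed. The stretches are chr4:136886201-136886450, chr4:136893066-136893164 and chrX:20931556-20931805, and the stretch of Cfp held no match to any motif searched.
C1qb: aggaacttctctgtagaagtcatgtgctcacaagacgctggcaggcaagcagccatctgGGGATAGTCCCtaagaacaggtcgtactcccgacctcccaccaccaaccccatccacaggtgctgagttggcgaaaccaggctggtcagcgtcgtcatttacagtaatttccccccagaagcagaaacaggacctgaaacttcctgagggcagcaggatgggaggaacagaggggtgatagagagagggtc
C1qc: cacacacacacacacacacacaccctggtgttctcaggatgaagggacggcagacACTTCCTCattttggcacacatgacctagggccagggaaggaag
Cfp: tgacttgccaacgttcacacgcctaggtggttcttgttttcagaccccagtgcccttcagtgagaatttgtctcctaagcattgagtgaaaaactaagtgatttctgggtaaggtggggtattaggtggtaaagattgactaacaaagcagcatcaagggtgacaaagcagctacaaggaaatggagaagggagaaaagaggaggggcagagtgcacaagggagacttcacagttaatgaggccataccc

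NF-kappaB letters are common, in 20.7% of the 32851 RefSeq windows and in 6 of the 25 member windows. The window of C1qc is among them, with its match beyond the stretch shown. PU.1 letters were in 3.20% of all windows and in 1 member window, C1qc. GAAA, any 2 bases and GAAA (interferon response element) was in 3.44% of all windows and in those of Cd59a and Vtn, where the Vtn match lies beyond the stretch shown. TTCNNNGAA (STAT) was in 8.30% of windows and in 5 member windows, TTGCNNCAA (C/EBP) in 2.08% and in those of C6 and C7, and GTTAAT, any base and ATTAA (HNF1) in 0.0609% and in that of Hc. CAAAGTCCA (HNF4) was in 0.475% and in 0 member windows. Both strands were searched. A match says only that the letters are present.

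**Figure D3:**
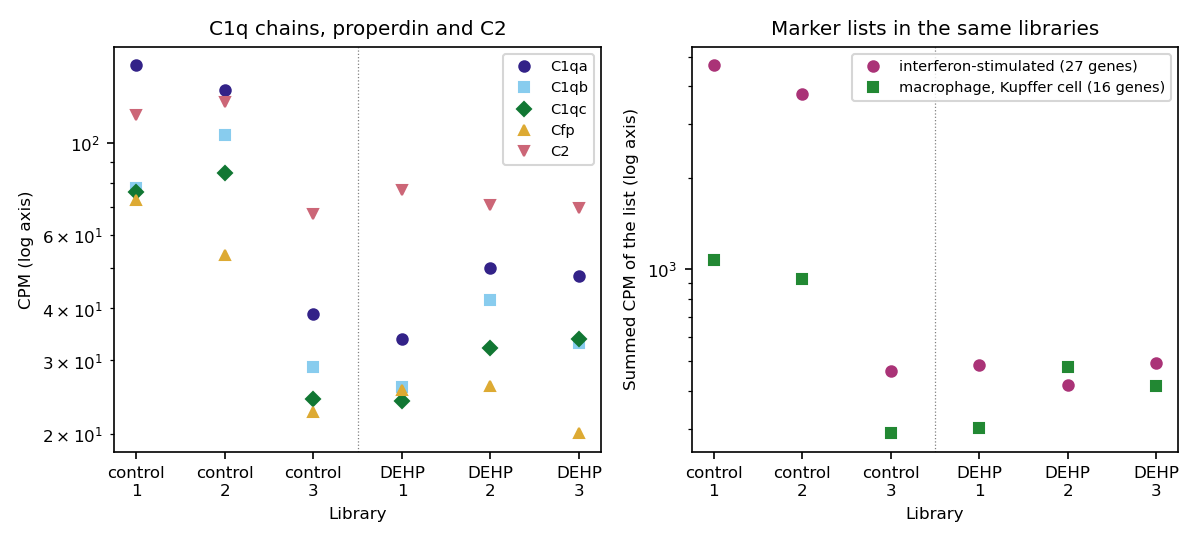
Left, CPM (log axis) of C1qa, C1qb, C1qc, Cfp and C2 in each library; right, the summed CPM (log axis) of 27 interferon-stimulated and 16 macrophage genes in the same libraries. In both panels control replicates 1 and 2 are high and control replicate 3 lies with, or next to, the exposed libraries.

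The summed level of macrophage genes had the same split of the controls as the C1q chains and Cfp, but not every gene of the list did. The list, with 16 of 17 genes present and none at 0, summed to 1072, 928 and 289 CPM in controls and 301, 478 and 413 CPM in exposed livers. Of its 15 tested genes, 13 had negative and 2 positive log2 fold changes (median -0.81). At an unadjusted p of 0.05, 3 were lower (6.97% of all genes), and 0 passed the adjusted threshold. By CPM, the most abundant genes of the list were Clec4f, a Kupffer cell lectin, and Mpeg1, a macrophage pore protein. Their log2 fold changes were -0.87 ± 0.38 and -2.22 ± 0.97 (edgeR adjusted p = 0.380 and 0.435). Per length the most abundant was Cd74, with a log2 fold change of -0.27 ± 0.30 (edgeR adjusted p = 0.756). Adgre1, which encodes the macrophage marker F4/80, was at -0.06 ± 0.40, and Cd163 and Ccr2 were the positive ones, at 0.29 ± 0.31 and 0.31 ± 0.77. These 3 genes were picked after their values were seen. As a share of the summed macrophage list, the summed C1q chains were 28.7%, 34.8% and 31.8% in controls and 27.8%, 25.9% and 27.8% with DEHP. In this share, computed after the values were seen and not tested, every control, replicate 3 included, was above every exposed library. In these bulk samples fewer macrophages and less RNA per macrophage cannot be told apart, and the part of macrophage content in the C1q difference was not tested. In the interferon-stimulated list 23 of 25 tested genes were lower at an unadjusted p of 0.05 (6.97% of all genes). The median log2 fold change of that list was -2.81, and its part was not tested either.

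These differences turned on the control libraries and on the filter. Without control replicate 3, C1qa, C1qb, C1qc and Cfp passed the adjusted threshold as lower, where 278 of 12890 genes did (2.16%). C1qa then had a log2 fold change of -1.69 (edgeR adjusted p = 2.52e-04), C1qb of -1.41 (0.00239), C1qc of -1.40 (0.00121) and Cfp of -1.39 (0.00196). Without control replicates 1 and 2, which leaves 1 control that is assumed to vary like the other libraries, the log2 fold changes were 0.19, 0.23, 0.32 and 0.09 in the same order, and 0.11 for C2. So the direction for these 5 genes rests on control replicates 1 and 2. With no filter on low counts and all 6 libraries, C1qa, C1qb, C1qc and Cfp also passed as lower, where 1.34% of all genes did.

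The lectin pathway differed from this in which libraries were high. Of its 5 tested genes, 2 were lower at an unadjusted p of 0.05 (6.97% of all genes). In 3, all exposed libraries lay below all controls (8.57% of all genes), and the median log2 fold change was -0.36. Masp1, the protease that binds the lectins and activates MASP-2, had 28.2, 30.0 and 27.0 CPM in controls and 18.3, 10.5 and 21.2 CPM in exposed livers. All controls lay above all exposed libraries, and the controls lay close together. The means were 28.4 ± 1.47 and 16.7 ± 5.54 CPM (SD, n = 3), a log2 fold change of -0.77 ± 0.25 (SE, edgeR adjusted p = 0.251). With only control replicate 3 kept it was -0.69. Masp1 lies at chr16:21570293-21643281.

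Colec10 encodes collectin liver 1, a sugar-binding starter of the pathway. It had 10.2, 12.7 and 18.3 CPM in controls and 7.59, 8.11 and 9.17 CPM in exposed livers, a log2 fold change of -0.72 ± 0.28 (SE, edgeR adjusted p = 0.325). Control replicate 3 was the highest library here, and the fold change was -0.44 without it. Stellate cell genes summed to 184, 161 and 217 CPM in controls and 103, 184 and 163 CPM with DEHP, and their part was not tested.

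Mbl1, which encodes mannose-binding lectin A, had 206, 182 and 211 CPM in controls and 171, 158 and 139 CPM in exposed livers, a log2 fold change of -0.36 ± 0.18 (SE, edgeR adjusted p = 0.430). The lowest control was above the highest exposed library.

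The other two genes of the pathway were near 0. Mbl2, which encodes mannose-binding lectin C, had 429.5, 418 and 408 CPM in controls and 498, 475 and 369.6 CPM with DEHP, a log2 fold change of 0.10 ± 0.19 (edgeR adjusted p = 0.871). Masp2, the protease that cleaves C4 and C2, had 127, 140.3 and 173 CPM in controls and 144, 142 and 153 CPM with DEHP, a fold change of 0.00 in size on the log2 scale (SE 0.19). The span of Masp2 overlaps Tardbp on the opposite strand, which had 7168 counts in all. Some markers of sinusoidal endothelium were also lower in all exposed libraries, as were Masp1, Colec10 and Mbl1. That list, with all 7 genes present and none at 0, summed to 293, 278 and 341 CPM in controls and 230.1, 153 and 289 CPM with DEHP, with overlap. Of the 7, 2 were lower at an unadjusted p of 0.05 (6.97% of all genes). The same 2 had all exposed libraries below all controls (8.57% of all genes), and the median log2 fold change of the list was -0.31. Clec4g, an endothelial lectin, had 70.0, 69.9 and 67.8 CPM in controls and 42.7, 20.3 and 53.3 CPM with DEHP, a log2 fold change of -0.84 ± 0.29 (edgeR adjusted p = 0.281). Stab1, a scavenger receptor, had 94.0, 81.4 and 86.1 CPM against 75.7, 41.0 and 64.2 CPM, a log2 fold change of -0.53 ± 0.22 (edgeR adjusted p = 0.350). Lyve1, the marker of the list with a positive log2 fold change, was at 0.27 ± 0.36 (edgeR adjusted p = 0.798). Among exposed libraries, Masp1 and Clec4g had the same order, lowest in DEHP replicate 2 and highest in DEHP replicate 3. That pair was picked after the values were seen. Of the other endothelial markers, Stab2, Kdr, Oit3 and Lyve1 also had that order, and Stab1 and Pecam1 did not. Colec10 and Mbl1 each had another order. The part of endothelial content in the lectin pathway differences was not tested.

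Ratios within the pathway, computed after the values were seen and not tested, were apart between groups. Mbl2 over Mbl1 per length was 1.75, 1.92 and 1.63 in controls and 2.44, 2.52 and 2.23 with DEHP. Masp2 over Masp1 per length was 4.93, 5.15 and 7.04 in controls and 8.64, 14.9 and 7.97 with DEHP.

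Susd4 and Colec11 had the smallest p-values among the other complement genes, a list of 30 chosen with the members, of which 22 had a row and 17 were tested. None of the 17 passed the adjusted threshold, and their median log2 fold change was -0.19. At an unadjusted p of 0.05, 3 were lower (6.97% of all genes) and 2 higher (6.11% of all genes). All exposed libraries lay below all controls in 3 (8.57% of all genes) and above all controls in 3 (9.17% of all genes). Colec11, the collectin partner of Colec10, had 34.6, 29.5 and 34.7 CPM in controls and 15.7, 15.6 and 19.6 CPM with DEHP, a log2 fold change of -0.95 ± 0.21 (SE, edgeR adjusted p = 0.129). Susd4, which encodes a membrane complement inhibitor, had 12.9, 16.4 and 16.0 CPM in controls and 39.6, 29.8 and 28.0 CPM with DEHP, a log2 fold change of 1.10 ± 0.22 (SE, edgeR adjusted p = 0.128). In both genes the groups were apart in opposite directions.

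C1rl and Fcna were also lower at an unadjusted p of 0.05. C1rl, a C1r-like protease, had 116, 96.1 and 94.3 CPM in controls and 80.3, 54.7 and 73.5 CPM with DEHP, a log2 fold change of -0.56 ± 0.20 (edgeR adjusted p = 0.290). Fcna, which encodes ficolin A, a sugar-binding lectin, had 42.1, 39.6 and 34.6 CPM against 27.4, 33.8 and 22.2 CPM, a log2 fold change of -0.48 ± 0.21 (edgeR adjusted p = 0.356). By level per length, Serping1, the C1 inhibitor, was the most abundant of the list, with a log2 fold change of -0.39 ± 0.22 (edgeR adjusted p = 0.462). Cfhr2, second in level and one of a family of similar genes whose reads may be divided among them, had 0.34 ± 0.23 (edgeR adjusted p = 0.570). Cpn1, which encodes the catalytic subunit of carboxypeptidase N, had -0.28 ± 0.22 (edgeR adjusted p = 0.631).

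**Figure D4:**
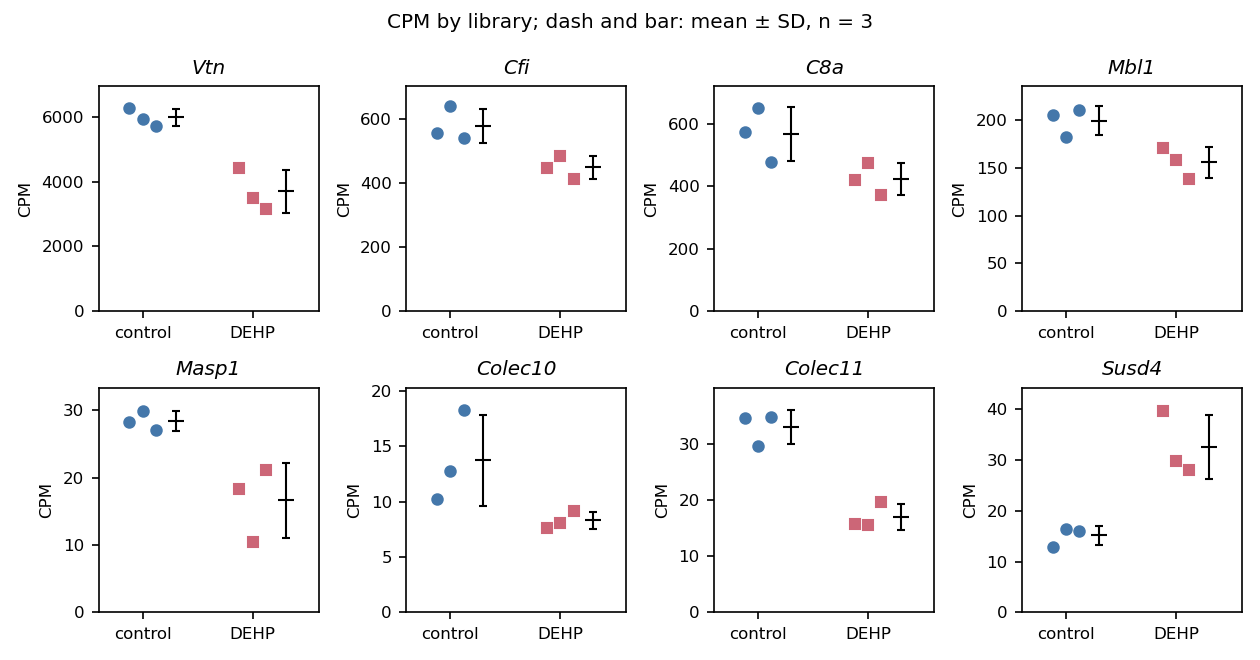
CPM by library (circles, control; squares, DEHP) for the 6 members whose exposed libraries all lay below the controls and for Colec11 and Susd4; dashes and bars are mean ± SD, n = 3. Vtn, Cfi, C8a, Mbl1, Masp1, Colec10 and Colec11 are lower in exposed libraries and Susd4 is higher, and none of them passed the adjusted threshold.

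In the alternative pathway, C3, the convergence point of the cascade, was the second most abundant gene per length. C3 had 6521, 8269.8 and 6294 CPM in controls and 6175, 6773 and 6567 CPM with DEHP, and the groups overlapped. Its log2 fold change was -0.11 ± 0.20 (SE, edgeR adjusted p = 0.856). Cfb, which encodes factor B, had 1.13, 2.61 and 1.15 CPM in controls and 1.32, 0.611 and 1.19 CPM with DEHP, a log2 fold change of -0.65 ± 0.67 (edgeR adjusted p = 0.723). The Cfb span also overlaps Gm20547 on the same strand, so its low count is uncertain.

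Cfd encodes factor D, the protease that activates factor B and is made in large amounts by fat cells. It had 1.20, 1.34 and 0.354 CPM in controls and 0.101, 0 and 17.2 CPM with DEHP. DEHP replicate 3 alone was high, and the other exposed libraries were below every control. The log2 fold change of 2.55 ± 2.10 (edgeR adjusted p = 0.682) was -4.08 without that library. Adipocyte genes, with Lep at 0, summed to 29.5 CPM in DEHP replicate 3 and to 9.88 to 19.7 CPM elsewhere. Adipoq had 2.12 CPM there and 0 in the other 5 libraries, and the part of fat tissue in the Cfd value was not tested.

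Among the terminal components, 1 of 6 tested genes was lower at an unadjusted p of 0.05 (6.97% of all genes). The median log2 fold change of the 6 was -0.25. C8a, the C8 alpha chain, had 574, 651 and 479 CPM in controls and 420.0, 474 and 372 CPM with DEHP, a log2 fold change of -0.43 ± 0.20 (SE, edgeR adjusted p = 0.378). The margin between groups was narrow, 479 against 474 CPM. C8b, its beta chain, had 249.6, 307 and 325 CPM against 227, 264 and 238 CPM, with overlap (-0.27 ± 0.19, edgeR adjusted p = 0.575). C8g, the gamma chain, had 525, 439 and 527 CPM against 542, 559.8 and 459 CPM, with overlap (0.06 ± 0.19, edgeR adjusted p = 0.919). Per length, C8a ranged from 1.03 to 1.61 times C8b and C8g from 2.44 to 4.07 times C8b. The span of C8g overlaps Fbxw5 on the opposite strand.

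C9, the pore-forming subunit, had 292, 445 and 364 CPM in controls and 227, 384 and 182 CPM with DEHP, a log2 fold change of -0.47 ± 0.27 (edgeR adjusted p = 0.479). C6, which joins the complex after C5b, had 138, 198 and 228 CPM against 182, 181 and 118 CPM, a log2 fold change of -0.23 ± 0.23 (edgeR adjusted p = 0.719). In both genes the groups overlapped. C7, the next subunit, was low, with 1.42, 2.21 and 0.620 CPM in controls and 1.11, 2.53 and 6.46 CPM with DEHP. DEHP replicate 3 was again the highest library, and the log2 fold change of 1.24 ± 0.66 (edgeR adjusted p = 0.444) was 0.36 without it. B cell genes summed to 6.80 CPM and T cell genes to 7.90 CPM in that library, against at most 3.90 and 4.16 CPM in the others, and their part was not tested.

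Among the regulators, Vtn had the smallest p. It encodes a plasma protein that blocks insertion of the terminal complex into membranes, and lies at chr11:81986375-81989608. It had 6275, 5936 and 5726 CPM in controls and 4432, 3503 and 3159 CPM with DEHP. Every control was above every exposed library, including control replicate 3. The means were 5979 ± 277 and 3698 ± 659 CPM (SD, n = 3), a log2 fold change of -0.69 ± 0.21 (SE, edgeR adjusted p = 0.208). It ran from -0.82 to -0.59 with any 1 library left out and was -0.62 with control replicates 1 and 2 left out. DESeq2 gave an adjusted p of 0.0330 for Vtn and 0.0259 for C1qa, the 2 members it called lower (1.24% of all genes).

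The promoter of Vtn is shown for the gene with the smallest p among the members, on the plus strand at chr11:78498870-78499090 of GRCm38.p6. It ends before the first transcript start annotated in GENCODE M21, and the stretch shown held no match to the motifs searched. The full window of Vtn held an interferon response element and a STAT match, both beyond that stretch.
Vtn: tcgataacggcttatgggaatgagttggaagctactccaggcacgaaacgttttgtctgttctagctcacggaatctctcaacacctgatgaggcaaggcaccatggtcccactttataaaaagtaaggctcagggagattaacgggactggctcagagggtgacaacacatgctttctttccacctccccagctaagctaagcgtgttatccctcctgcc

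Cfi encodes factor I, the protease that inactivates C3b and C4b. It had 557, 639 and 541 CPM in controls and 447, 484 and 413 CPM with DEHP, with no overlap and a log2 fold change of -0.37 ± 0.18 (SE, edgeR adjusted p = 0.416). The row named C4bp, a cofactor of factor I, had 492, 579 and 407 CPM against 304, 430.2 and 349 CPM, with overlap and a log2 fold change of -0.45 ± 0.21 (edgeR adjusted p = 0.381). The description in that row names a LINE-1 ORF2 protein, so which transcripts it counts is uncertain.

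Clu, which encodes clusterin, a further inhibitor of the terminal complex, had 2083, 2599 and 2220.4 CPM in controls and 2287, 2370.5 and 2119.5 CPM with DEHP, a log2 fold change of -0.03 ± 0.19 (edgeR adjusted p = 0.970). Vtn over Clu per length was 5.10, 3.87 and 4.37 in controls and 3.28, 2.50 and 2.52 with DEHP, a ratio also computed after the values were seen and not tested. Cd59a, a membrane inhibitor of C9, had 6.73, 9.48 and 10.5 CPM against 9.62, 11.3 and 9.43 CPM, a log2 fold change of 0.19 ± 0.28 (edgeR adjusted p = 0.824). Of the 5 tested regulators, 2 were lower at an unadjusted p of 0.05 (6.97% of all genes). The median log2 fold change of the 5 was -0.37. Acute-phase genes, another set of hepatocyte plasma proteins, summed to 56312, 51889 and 30759.5 CPM in controls and 28652, 30232 and 24818 CPM with DEHP. That list had 20 of 21 genes present, with A2m at 0. In its sum control replicate 3 was near the exposed libraries, unlike for Vtn. Of its 19 tested genes, 16 had negative and 3 positive log2 fold changes. In 2 of them, Hpx and Itih4, all exposed libraries lay below all controls (8.57% of all genes). The part of the acute-phase list was not tested.

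The anaphylatoxin receptors were low in liver. C3ar1, the receptor for C3a, had 3.12, 2.69 and 1.42 CPM in controls and 1.32, 2.97 and 3.06 CPM with DEHP, a log2 fold change of 0.02 ± 0.53 (edgeR adjusted p = 0.992). C5ar1, the receptor for C5a, had 0.496, 0.158 and 1.24 CPM against 0.608, 0.436 and 1.19 CPM and was not tested.

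For the members without a row under their symbol, rows were looked for by their protein descriptions after the values were seen. The row described as Hc, complement C5, had 926, 945 and 633 CPM in controls and 527, 604 and 461 CPM with DEHP, a log2 fold change of -0.65 ± 0.21 (edgeR adjusted p = 0.244), with no overlap of the groups. Its span overlaps AI182371 on the same strand, which had 4760 counts in all, and how reads in both were assigned is not given. The row described as C4b had 575, 449.7 and 186 CPM against 195, 196 and 183 CPM, a log2 fold change of -1.07 ± 0.34 (edgeR adjusted p = 0.260). In it control replicate 3 lay with the exposed libraries, as for the C1q chains. The span of the C4b row overlaps another protein-coding row on the same strand, which had 81 counts in all. An unnamed locus also described as C4b, which entered no test, held 529, 298 and 136 reads in controls and 85, 80 and 98 reads with DEHP, and there control replicate 3 was above every exposed library. The row described as C1s1, a protease of C1, had 265, 280.1 and 267 CPM against 236, 263 and 209 CPM, a log2 fold change of -0.20 ± 0.18 (edgeR adjusted p = 0.689), and the groups were apart by a narrow margin. Cd55, a membrane regulator, had 2.41, 2.45 and 2.22 CPM against 1.62, 2.97 and 3.48 CPM. Its span overlaps an antisense row with 206 counts in all, and Cd55b on the same strand with 0 counts.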

How the data were processed

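The libraries were made from polyadenylated RNA of mouse liver with a kit that keeps strand information and read from both ends, per the labels' protocols. The authors deposited unnormalized counts of reads per gene, whole numbers in a single table. GRCm38.p6 is the build named in the submitters' processing notes. Aligner, counter and strand setting: not given in the sources used here. Identifiers belong to the Ensembl C57BL/6NJ annotation, so coordinates are as the table has them. The series' design text concerns another assay, so groups came from the sample titles.

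The members and lists were chosen with earlier results of these data known. Of 42380 rows, 1284 unnamed loci (2.73% to 4.28% of counts) stayed out of library sizes and tests, which left 41096. The test was edgeR 4.0.16 under R 4.3.3: filterByExpr (minimum count 10), TMM, robust quasi-likelihood, two-sided, Benjamini-Hochberg over 12468 genes, threshold 0.05. CPM use the TMM-scaled total of named genes past the filter. The common biological coefficient of variation was 27.8%. Standard errors come from the F statistic. With 3 libraries a group an exact permutation test cannot go below p = 0.1. Every member with a row is named, and of other complement genes those at an unadjusted p of 0.05 and the 4 most abundant per length. Some genes that this rule names are not reported here. Other settings tried were RLE scaling, no filter, mean CPM of 1 or more, limma-voom (limma 3.58.1), DESeq2 1.42.0, a non-robust fit, a replicate block, each library left out, and control replicates 1 and 2 left out. Matching by description was added later, with the values known. Simulated counts were used to check the test.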

Additional observations from a re-analysis of the deposited data

Results flagged for a closer look

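C1ra, a protease of C1, has no row under its symbol, and the description points to an unnamed locus that entered no test. The locus spans chr6:131122871-131124715 with a listed length of 689 bases. How much of C1ra it covers is not given, so its reads are no measure of the level of C1ra. It held 1, 11 and 5 reads in the controls, by replicate, against 2, 8 and 89 reads with DEHP. DEHP replicate 3 alone was above the controls. Cfd and C7 were also highest in that library.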

How the results depend on the processing

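Of 25 members, 13 kept their sign in all 14 alternatives, and 5 (C1qa, C1qb, C1qc, Cfp and Vtn) passed in at least 1. Members past the threshold numbered 4 with no filter, 2 with DESeq2 and 0 to 4 with 1 library left out. Other complement genes past it numbered 3 with no filter, 3 with DESeq2 (Colec11 and Susd4 among them in both) and 0 to 1 with 1 library left out. Over all genes the counts were 496 with no filter, 272 with DESeq2, 5 to 400 with 1 library left out and 0 without control replicates 1 and 2. At an unadjusted p of 0.05, members lower were 5 with limma-voom, against 6.22% of all genes. With 1 library left out they numbered 2 to 9, against 3.73% to 8.32% of all genes. Members higher were 1 with no filter, against 5.28% of all genes. With 1 library left out those higher numbered 0 to 1, against 3.47% to 7.65% of all genes. The member higher was C7 each time. Without control replicates 1 and 2 the median was -0.089, and the log2 fold changes that turned were C1qa 0.19, C1qb 0.23, C1qc 0.32, C2 0.11, C3 0.060, Cfp 0.088, C8g -0.0073, Clu 0.037 and Cd59a -0.036.

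Elsewhere Cfd was -0.81 with limma-voom and -0.23 with the replicate block, and Clu 0.0036 with no filter. Masp2 was 0.013 with RLE scaling and with a mean of at least 1 CPM, 0.014 with DESeq2, 0.010 with limma-voom and with the replicate block, and 0.027 with no filter. With 1 library left out, C3 ran from -0.16 to 0.024, C3ar1 from -0.22 to 0.34, C8g from -0.015 to 0.15, Cfd from -4.08 to 3.15, Clu from -0.092 to 0.072 and Masp2 from -0.096 to 0.16. Apart from settings that by construction test more genes or fewer samples, the cause was not tested. No sign was seen that the replicate numbers pair the samples. Same-numbered libraries correlated at -0.021, 0.057 and -0.028 in their deviations across genes, and differently numbered ones at -0.047 to 0.060. The labels state no pairing, and these values cannot decide it. With the replicate block 0 members passed, and 6 genes passed in all. In that fit 9 members were lower at an unadjusted p of 0.05, against 6.96% of all genes. With rows matched by description, 0 of 29 members passed and 12 were lower at an unadjusted p of 0.05, against 6.97% of all genes. Members under about 3 CPM in controls (Cfb, Cfd, C7, C3ar1 and C5ar1) had too few counts for a small difference to be seen.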
